A study of Homo sapiens with 2 samples.

Results

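Guanylate-binding proteins, the tryptophan-degrading enzyme IDO1 and the apolipoproteins L are products of genes that cells switch on in response to interferon, and 8 of them were followed here: GBP1, GBP2, GBP3, IDO1, APOL1, APOL2, APOL3 and APOL6. The genes were measured in PC3, a human prostate cancer cell line, after knockdown of SUB1 (also called PC4), a transcriptional coactivator that binds single-stranded DNA. Each of 2 dual-colour Agilent arrays compared RNA of cells given 1 of 2 SUB1 siRNA duplexes, labelled with Cy5, with RNA of cells given a non-targeting siRNA (Non-T siRNA), labelled with Cy3. Cells received 2 lipid transfections a day apart and were harvested 72 h after the first, and all groups went through the same transfections, so that every value is relative to transfected cells and not to untouched PC3. Members were found by gene name, with INDO as the older name of IDO1 on the array: 17 probes named these 8 genes, and all 8 genes were among the 19217 genes whose signal passed a filter on dim probes. The ratio SUB1 siRNA over Non-T siRNA is given on the log2 scale, where 1 stands for 2-fold, and a gene with several probes is represented by its brightest.

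There was 1 array per siRNA, no dye swap, and the sources used here do not state whether both arrays carried the same Non-T extract, so a ratio of 1 array has no replicate check and dye and treatment cannot be told apart within it. The only error that could be measured was that between spots of 1 array: over 209 gene probes printed 10 times, the median SD of the log2 ratio was 0.078 for siRNA 1 and 0.074 for siRNA 2, and 0.098 and 0.092 among the dimmer probes (mean log2 intensity under 8). Each member probe was printed as 1 spot. SUB1 itself had log2 ratios of -3.30 with siRNA 1 and -3.26 with siRNA 2, the lowest of all genes on both arrays. As a check of the cell type, 4 of 4 epithelial markers (KRT8, KRT18, EPCAM and CDH1) were well above background. Of 9 leukocyte markers, 3 were well above background in the Non-T channel of both arrays (CD3E, CD14 and CD68), and PTPRC, ITGAM, LYZ, CD2 and CD48 were among those that were not. The leukocyte markers' summed signal was 1190 and 1081 in the Non-T channels and 1011 and 1242 in the siRNA 1 and siRNA 2 channels. The higher sum with siRNA 2 lay in CD68 (347 with siRNA 1 and 601 with siRNA 2). Without it the other 8 summed to 664 and 642 in these channels. Against the label, 1 of 3 probes named KLK3, the prostate-specific antigen gene that PC3 is known not to express, was bright at 18634 in the Non-T channel of array 1, whereas the probe of its RefSeq transcript was at 87.2 and not well above background.

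Guanylate-binding proteins are large GTPases of the dynamin superfamily that assemble on the vacuoles and membranes of intracellular bacteria and parasites. IDO1 is a haem enzyme that opens the ring of tryptophan, the first and rate-limiting step of the kynurenine pathway, and is known for starving pathogens and restraining T cells. The apolipoproteins L are lipid-binding proteins encoded near each other on the same chromosome: APOL1 is secreted and kills trypanosomes, and the other members stay inside the cell. Interferon alpha and beta act on such genes through the factor ISGF3 at interferon-stimulated response elements (ISRE), and interferon gamma acts at gamma-activated sites (GAS).

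Promoter sequences in the RefSeq table used here (GRCh38.p14) were matched for 2 of the 8 genes, GBP1 and GBP3. They are shown because they were the only members with a sequence here. Windows of the other members, IDO1 included, were not searched for motifs. GBP1 and GBP3 are neighbours and close relatives, and both were at least 2-fold higher with siRNA 2. Each run holds the 250 bases before the annotated start, read in the direction of the gene, from the minus strand of chr1:89065209-89065458 (GBP1) and chr1:89022867-89023116 (GBP3). Capitals mark matches, on either strand, to GAAANNGAA (the core of an ISRE) or TTCNNNGAA (a GAS).
GBP1: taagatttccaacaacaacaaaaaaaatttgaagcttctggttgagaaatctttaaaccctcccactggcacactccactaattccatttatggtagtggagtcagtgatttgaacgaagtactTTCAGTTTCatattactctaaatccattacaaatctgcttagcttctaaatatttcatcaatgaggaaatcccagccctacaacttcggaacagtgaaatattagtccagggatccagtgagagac
GBP3: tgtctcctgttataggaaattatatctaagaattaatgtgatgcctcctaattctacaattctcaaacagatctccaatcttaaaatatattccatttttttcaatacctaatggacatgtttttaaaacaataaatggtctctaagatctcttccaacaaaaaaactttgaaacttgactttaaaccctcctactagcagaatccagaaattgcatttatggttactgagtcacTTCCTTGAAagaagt
The GBP1 window held 1 match to the ISRE core, which begins 126 bases before the start and is read from the opposite strand. It held 0 matches to the GAS pattern TTCNNNGAA. The GBP3 window held 0 matches to the ISRE core and 1 to the GAS, beginning 15 bases before the start. Of 35116 promoter windows of this length, 6.88% held the ISRE core, 6.567% the GAS and 0.686% both. Among the other family members with a sequence, the windows of GBP4, GBP6 and GBP7 held 0 matches to either motif. A match is a match of letters only, and its use by a factor was not measured here. Likewise, a count of 0 holds for these patterns only, and sites with other letters were not looked for.

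With SUB1 siRNA 2, all 8 genes had log2 ratios above 0, from 0.29 (GBP2) to 1.82 (IDO1), with a median of 1.24. IDO1, GBP1, APOL3, APOL2 and GBP3 were at least 2-fold higher than with Non-T siRNA, 5 of 8 genes, where 0.614% of all genes measured were (118 of 19217). The same count of 5 stood beside 1.38% of all genes with median centring in place of loess, and beside 5.19% with the scanner software's processed signals. A ratio above 0 was found for 53.6% of all genes. With SUB1 siRNA 1, 0 of the 8 genes were at least 2-fold higher, beside 0.208% of all genes, and the median was 0.11. Of the 8 ratios with siRNA 1, 6 were above 0, as were 54.1% of all genes, and 5 lay within 0.25 of 0. The median over all genes was 0.02 on both arrays. The 8 genes were chosen with results of these arrays known, so their counts are not independent evidence of a direction.

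**Figure D1:**
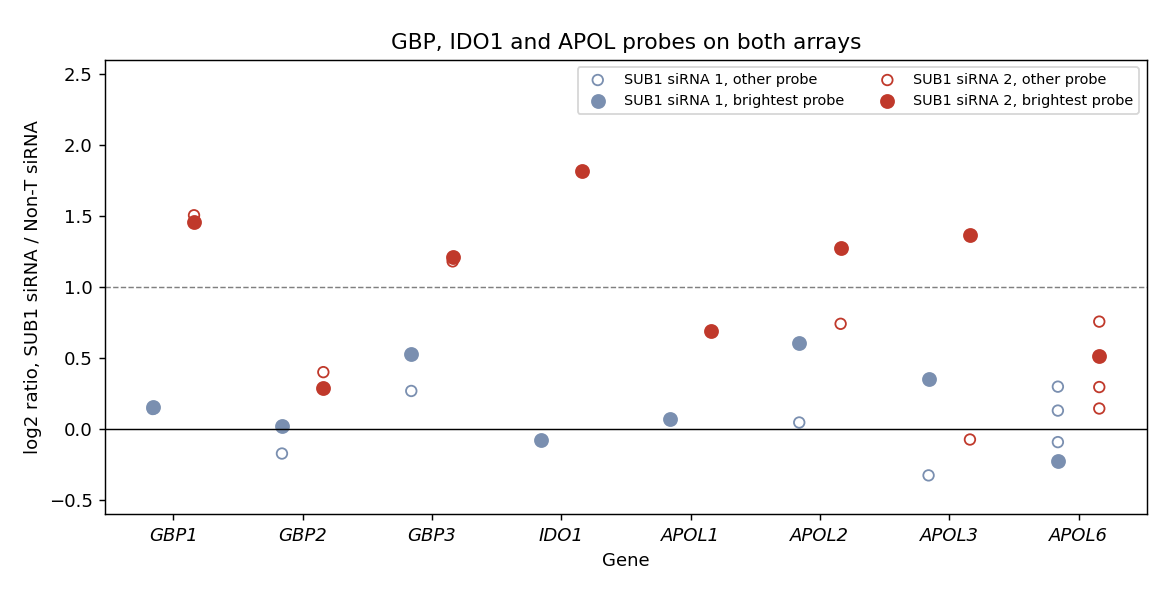
Log2 ratio to Non-T siRNA (vertical axis) for the probes of each gene (horizontal axis) that passed the filter on dim probes, with siRNA 1 in blue and siRNA 2 in red; filled points are the brightest probe of a gene, open points its other probes, and the dashed line marks 2-fold. With siRNA 2, 7 probes of 5 genes lie above the dashed line, and with siRNA 1 none does.

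Of the guanylate-binding proteins, GBP1 and GBP3 were at least 2-fold higher with siRNA 2 and GBP2 was not. GBP1, which coats cytosolic bacteria and is the family member most used as a readout of interferon, was read by a probe at chr1:89291279-89291338 (hg18, minus strand). Its spot signal was 1147 with Non-T siRNA and 1539 with SUB1 siRNA 1 on array 1, and 969 with Non-T siRNA and 3244 with SUB1 siRNA 2 on array 2. The siRNA 2 channel stood apart from the others, which lay between 969 and 1539. After background correction and normalization, which also removes the overall difference between the dyes, the log2 ratios were 0.16 with siRNA 1 and 1.46 with siRNA 2, a 2.74-fold higher level with siRNA 2 and rank 19 of 19217 genes from the top. The other GBP1 probe, close by on the same transcript, had ratios of 0.14 and 1.51, so that the probes differed from each other by less than the median spot-to-spot SD.

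GBP3, a close paralogue of GBP1, had the highest ratio of the 3 guanylate-binding proteins with siRNA 1, and a lower one than GBP1 with siRNA 2. The signals of its probe at chr1:89246041-89246100 (hg18, minus strand) were 1933 with Non-T siRNA and 3432 with siRNA 1 on array 1, and 1908 with Non-T siRNA and 5533 with siRNA 2 on array 2. As scanned, both SUB1 siRNA channels were thus above both Non-T channels. The same held for every other member except APOL6, before the overall difference between the dyes was removed. The log2 ratios were 0.53 with siRNA 1 (1.44-fold) and 1.21 with siRNA 2 (2.31-fold, rank 42 of 19217). The other GBP3 probe gave 0.27 and 1.18, so the siRNA 2 value was shared by both probes and the siRNA 1 value was lower on the dimmer one. Guanylate-binding protein genes are close in sequence, and how far a 60-base probe of 1 cross-hybridises with another was not tested.

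GBP2, which carries a lipid tail as GBP1 does, had the ratios nearest to 0 of the 8 genes on both arrays. Its signals were 477 and 552 on array 1 and 430 and 603 on array 2, for Non-T and SUB1 siRNA in that order. The log2 ratios were 0.02 with siRNA 1 and 0.29 with siRNA 2 (1.22-fold, rank 2974). The probe is listed at chr1:89348484-89350748 (hg18, minus strand), a span of 2265 bases against 60 for the other member probes, as for a probe that lies across a splice junction. A dimmer probe of GBP2 gave -0.17 and 0.40, and its Non-T signal was not well above background on array 2.

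IDO1 had the widest gap between the siRNAs among the 8 genes. Its single probe, at chr8:39904686-39904745 (hg18, plus strand), had signals of 1302 with Non-T siRNA and 1493 with siRNA 1 on array 1, and 1140 with Non-T siRNA and 4966 with siRNA 2 on array 2. The gene was above background in all 4 channels, Non-T siRNA included, and the siRNA 2 channel alone stood far above the others. The log2 ratio was -0.076 with siRNA 1, about 1 spot-to-spot SD from 0, and 1.82 with siRNA 2 (3.53-fold). That is rank 6 from the top of 19217 genes for the ratio with siRNA 2 and rank 5 for the difference between the siRNAs, which was 1.90. With 1 probe on the array, no other probe could be set beside it.

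APOL2, an intracellular apolipoprotein L, had the highest ratio of the 8 genes with siRNA 1. The signals of its probe at chr22:34952595-34952654 (hg18, minus strand) were 781 with Non-T siRNA and 1407 with siRNA 1 on array 1, and 789 with Non-T siRNA and 2313 with siRNA 2 on array 2. As for most members, both SUB1 siRNA channels as scanned were above both Non-T channels. The Non-T channels were nearly equal as scanned and 0.27 apart on the log2 scale after normalization. The log2 ratios were 0.61 with siRNA 1 (1.52-fold, rank 404) and 1.27 with siRNA 2 (2.42-fold, rank 34). The dimmer APOL2 probe gave lower values, 0.05 and 0.74, with nearly the same gap between the siRNAs, 0.69 against 0.67.

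APOL3, known for dissolving the membranes of cytosolic bacteria after guanylate-binding proteins have reached them, was measured by a pair of probes that did not give the same answer. The brighter, at chr22:34866446-34866505 (hg18, minus strand), had signals of 178 with Non-T siRNA and 229 with siRNA 1 on array 1, and 166 with Non-T siRNA and 457 with siRNA 2 on array 2. Its log2 ratios were 0.35 with siRNA 1 and 1.36 with siRNA 2 (2.57-fold, rank 25). The other probe, at chr22:34866882-34866941 on the same transcript, had signals of 132 and 95.1 on array 1 and 112 and 96.8 on array 2, and log2 ratios of -0.33 and -0.07. The higher APOL3 ratio with siRNA 2 therefore rests on 1 probe.

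APOL1, the secreted trypanolytic factor whose variants are known for kidney disease, was below 2-fold on both arrays. Its probe at chr22:34993036-34993095 (hg18, plus strand) had signals of 1105 with Non-T siRNA and 1405 with siRNA 1 on array 1, and 847 with Non-T siRNA and 1630 with siRNA 2 on array 2. The log2 ratios were 0.07 with siRNA 1 and 0.69 with siRNA 2 (1.61-fold, rank 430). The other APOL1 probe was the 1 member probe that the filter left out: its Non-T signal was not well above background on either array, which leaves no useful bound on its ratio. APOL1 is thus described by 1 probe.

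APOL6, an intracellular member with a domain like that of pro-death BCL2 relatives, was dim, and its 4 probes did not share a direction with siRNA 1. The brightest, at chr22:34393708-34393767 (hg18, plus strand), had signals of 180 with Non-T siRNA and 159 with siRNA 1 on array 1, and 148 with Non-T siRNA and 216 with siRNA 2 on array 2. The log2 ratios were -0.23 with siRNA 1 and 0.52 with siRNA 2 (1.43-fold, rank 936). With siRNA 2 the other 3 probes were at 0.76, 0.30 and 0.14, all above 0. With siRNA 1 they were at 0.30, -0.09 and 0.13, of which the probe at -0.09 was not well above background in the Non-T channel of that array. The dimmest was not well above background in the Non-T channel of either array, and its SUB1 siRNA channels were 1.03-fold and 1.095-fold above that limit for siRNA 1 and siRNA 2. Bounds this small on a single spot do not show a rise.

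**Figure D2:**
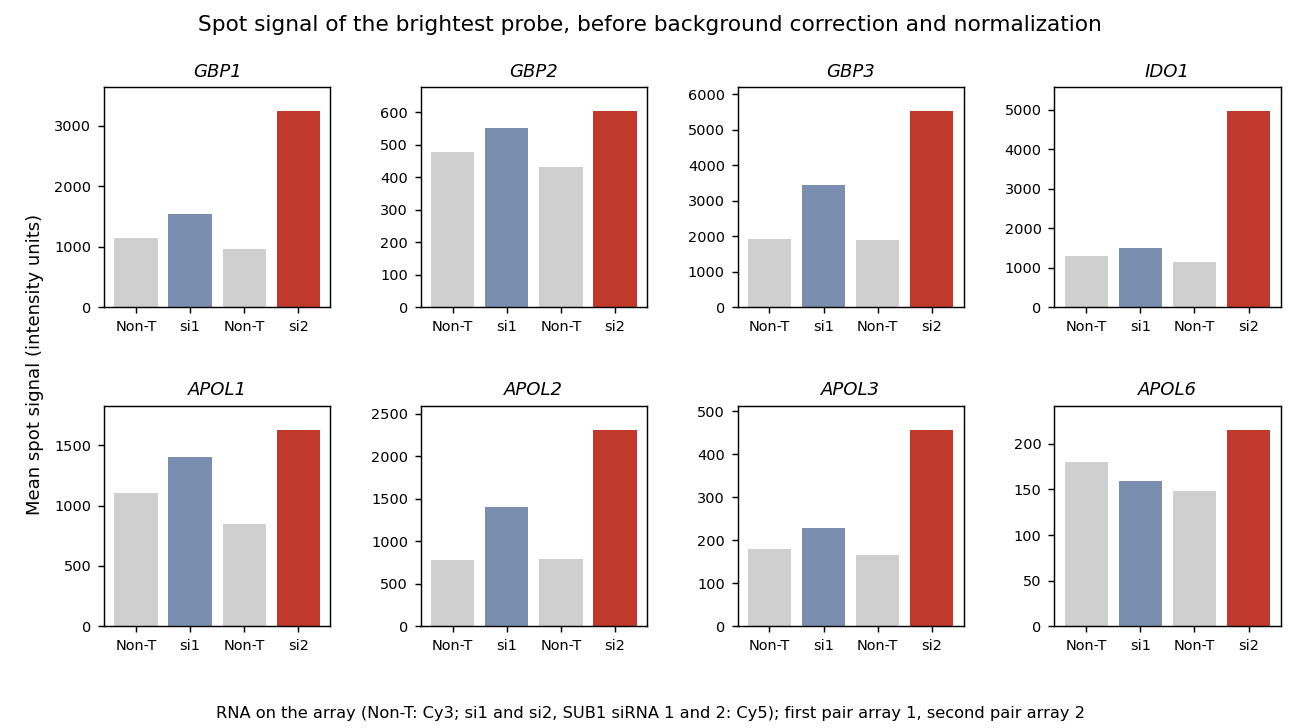
Mean spot signal (vertical axes, linear from 0, scaled separately for each gene) of the brightest probe of each gene in the 4 channels, as scanned and before background correction and normalization; grey bars are Non-T siRNA in Cy3, blue is SUB1 siRNA 1 and red is SUB1 siRNA 2, both in Cy5, and each bar is 1 spot. For all 8 genes the siRNA 2 bar is the tallest, from 216 for APOL6 to 5533 for GBP3.

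At the level of single probes, 7 of the 16 that passed the filter were at least 2-fold higher with siRNA 2, beside 0.526% of all probes, and 0 were with siRNA 1. All 16 had a higher ratio with siRNA 2 than with siRNA 1, as did 9528 of all 19217 genes. The APOL1 probe that the filter left out went the other way, at 0.25 with siRNA 1 and 0.09 with siRNA 2. The 16 probes are not separate measurements, since probes of 1 gene read the same RNA and both arrays have a Non-T channel as denominator. The gap between the siRNAs lay in the SUB1 siRNA channel. Between the arrays, the normalized Non-T signal of the 8 genes moved by a median of 0.06 on the log2 scale, from -0.17 (APOL1) to 0.27 (APOL2). The SUB1 siRNA signal moved by a median of 0.92, from 0.35 (GBP2) to 1.94 (IDO1). By gene, the difference of siRNA 2 minus siRNA 1 was at least 1 for GBP1 (1.30), IDO1 (1.90) and APOL3 (1.01), 3 of 8 genes, beside 0.65% of all genes. It was 0.27 for GBP2 and between 0.62 and 0.74 for GBP3, APOL1, APOL2 and APOL6. The difference has no test, because each siRNA was measured on 1 array.

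Taking both siRNAs as separate knockdowns of SUB1, limma asked whether a gene's mean log2 ratio over both arrays differed from 0. None of the 8 genes passed an adjusted p of 0.05, a limit that 0.0052% of genes passed (1 gene, SUB1). At an unadjusted p under 0.05 there were 3 of 8 (GBP3, APOL2 and APOL3), against 4013 of 19217 genes (20.9%). The largest mean was that of APOL2, 0.94 ± 0.18 (limma's moderated SE, 2 arrays), with an adjusted p of 0.13 by limma. GBP3 had a mean of 0.87 ± 0.19 with an adjusted p of 0.136 by limma. APOL3 had a mean of 0.86 ± 0.26 and an adjusted p of 0.184. IDO1, with nearly the same mean of 0.87, had an SE of 0.46 and an adjusted p of 0.343 by limma, since its arrays lay far apart. GBP1 was at 0.81 ± 0.32 with an adjusted p of 0.254 by limma. For GBP2, APOL1 and APOL6 the means were 0.16, 0.38 and 0.15, with adjusted p-values by limma of 0.478, 0.295 and 0.703. This test takes the SD between 2 different siRNAs for error and leaves out the spread of the Non-T siRNA cells. Limma moderated that SD towards the SDs of all genes, so each SE given is smaller than the 2 ratios alone would give.

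**Figure D3:**
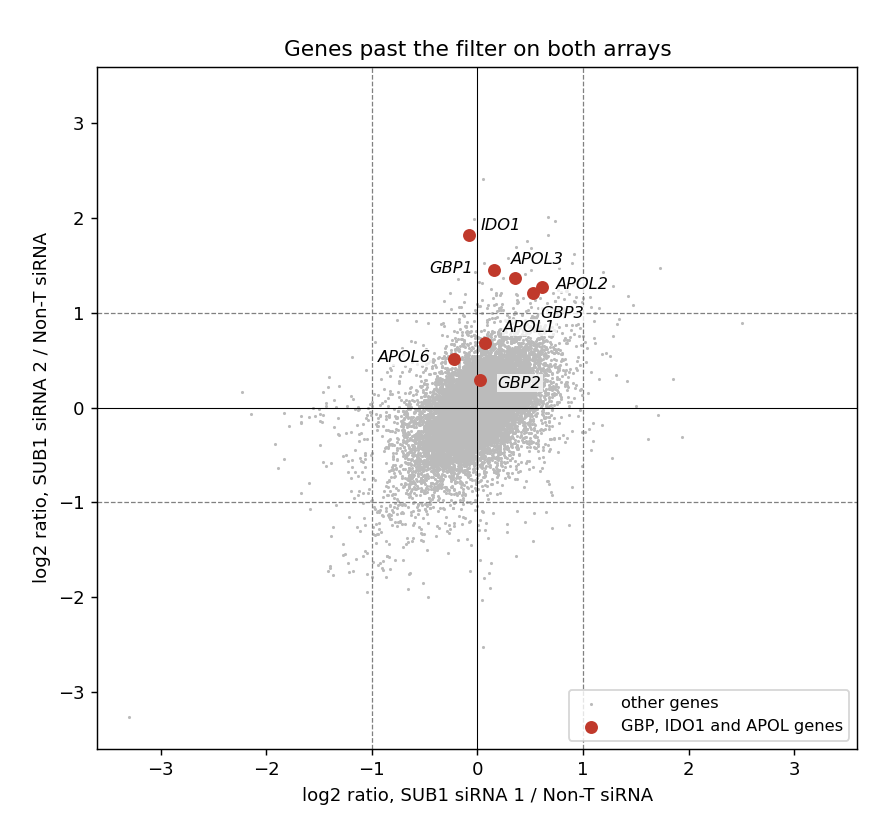
Log2 ratio over Non-T siRNA with SUB1 siRNA 1 (horizontal axis) and SUB1 siRNA 2 (vertical axis) for 19217 genes (grey points), with the 8 GBP, IDO1 and APOL genes in red and dashed lines at 2-fold; both axes have a Non-T channel as denominator. GBP1, GBP3, IDO1, APOL2 and APOL3 lie above the upper dashed line, and all 8 genes lie between the dashed vertical lines.

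The other genes of both families were taken as a list. Of GBP4 to GBP7, APOL4 and APOL5, 4 passed the filter and GBP7 and APOL5 did not. Their median was 0.32 with siRNA 1 and 0.90 with siRNA 2, where 4 of 4 were above 0 and 1 was at least 2-fold higher. Of all genes with siRNA 2, 53.6% were above 0 and 0.614% at least 2-fold higher. GBP4, a guanylate-binding protein without a lipid tail, was at 0.37 and 1.00. APOL4, which lies between APOL3 and APOL2, was at 0.27 and 0.91. Another GTPase list, the dynamin-superfamily genes outside the family, had medians of -0.05 and -0.07, with 0 of 8 measured genes past 2-fold on either array. The largest absolute ratios there were -0.43 and -0.26 for ATL3, which shapes the endoplasmic reticulum, and -0.10 and -0.32 for DNM1, the neuronal dynamin. Among 12 partners of guanylate-binding proteins in host defence and prenylation, 0 passed 2-fold and the medians were -0.09 and 0.06. Both counts of 0 are near the share of all 19217 genes: with siRNA 2, 118 were at least 2-fold higher and 205 lower. AIM2, the cytosolic DNA sensor, was at -0.08 and 0.79, and FNTA, the shared subunit of the enzymes that add the lipid tail, at 0.47 and 0.55.

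None of the other kynurenine pathway genes measured was 2-fold higher or lower. Few of all 19217 genes were: 40 were higher and 117 lower with siRNA 1, and 118 and 205 with siRNA 2. Of 11 pathway genes, 8 were measured, with medians of -0.01 with siRNA 1 and 0.13 with siRNA 2. IDO2 and TDO2, the other enzymes that open the tryptophan ring, did not pass the filter on dim probes. KMO, which hydroxylates kynurenine, was at 0.54 and 0.07, and KYAT1, which turns it into kynurenic acid, at -0.09 and -0.30.

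None of the measured genes in the lists of interferons and of interferon receptors and signalling was past 2-fold. That too is near the share of all 19217 genes, of which 118 were higher and 205 lower with siRNA 2. Of 20 interferon genes, 16 had a probe and 5 passed the filter, with medians of 0.10 and 0.14. IFNG was among those that did not pass the filter. IFNE was at 0.39 and 0.07 and IFNB1 at 0.11 and 0.37, each from a probe whose Non-T signal was between 87.3 and 101. Among 19 measured genes of 21 for receptors and signalling, 15 were above 0 with siRNA 2 (median 0.20) and 8 with siRNA 1 (median -0.04), beside 53.6% and 54.1% of all genes. IRF9, the DNA-binding subunit of ISGF3, was at 0.54 and 0.62, and IRF1, a factor that drives GBP and IDO1 genes, at -0.29 and 0.53. None of the 4 STAT3 probes passed the filter, in a line known to lack that gene.

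Other interferon targets were taken as 2 lists. Of 27 measured targets typical of type I interferon, 10 were at least 2-fold higher with siRNA 2 and 0 with siRNA 1. Of all genes, 0.614% and 0.208% were, so that 0 with siRNA 1 is near the share of all genes. The medians of these targets were -0.02 with siRNA 1 and 0.69 with siRNA 2. The largest ratios with siRNA 2 were those of RSAD2 (0.05 with siRNA 1 and 2.42 with siRNA 2), RTP4 (0.67 and 2.01), IFIT2 (-0.03 and 1.99) and ISG15 (0.67 and 1.83), genes of the antiviral response. The 17 measured targets typical of interferon gamma had medians of -0.11 with siRNA 1 and 0.37 with siRNA 2. Beside the same shares of all genes, 1 of 17 was at least 2-fold higher with siRNA 2 and 0 with siRNA 1. That gene was CD274, which encodes the checkpoint ligand PD-L1 (-0.13 and 1.11), followed by the DNA sensor IFI16 (-0.07 and 0.80). CXCL9, CXCL10, HLA-DRA, CD74 and IRF8, in the same list, did not pass the filter on dim probes. That filter asked for signal on both arrays, so a gene above background with siRNA 2 alone would also fail it. Many genes of both lists answer to either interferon, so the lists do not separate them. The 10 reference genes had medians of -0.07 and -0.03 and 0 past 2-fold. With siRNA 2, 118 of all 19217 genes were higher and 205 lower. The reference genes were spread, from B2M, the light chain of MHC class I (0.13 and 0.78), to TUBB, a tubulin (-0.31 and -0.84).

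In limma, 0 genes of each of these lists passed an adjusted p of 0.05, and at an unadjusted p under 0.05 there were 8 of 27 type I targets, 2 of 17 interferon gamma targets, 3 of 19 receptor and signalling genes, 3 of 4 other GBP and APOL genes, 3 of 12 GBP partners, 1 of 8 other GTPases, 4 of 10 reference genes and 0 of the kynurenine genes and interferons. Of all genes, 20.9% were under that unadjusted limit. These are bulk RNA values, in which a larger share of responding cells and more RNA per cell cannot be told apart.

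**Figure D4:**
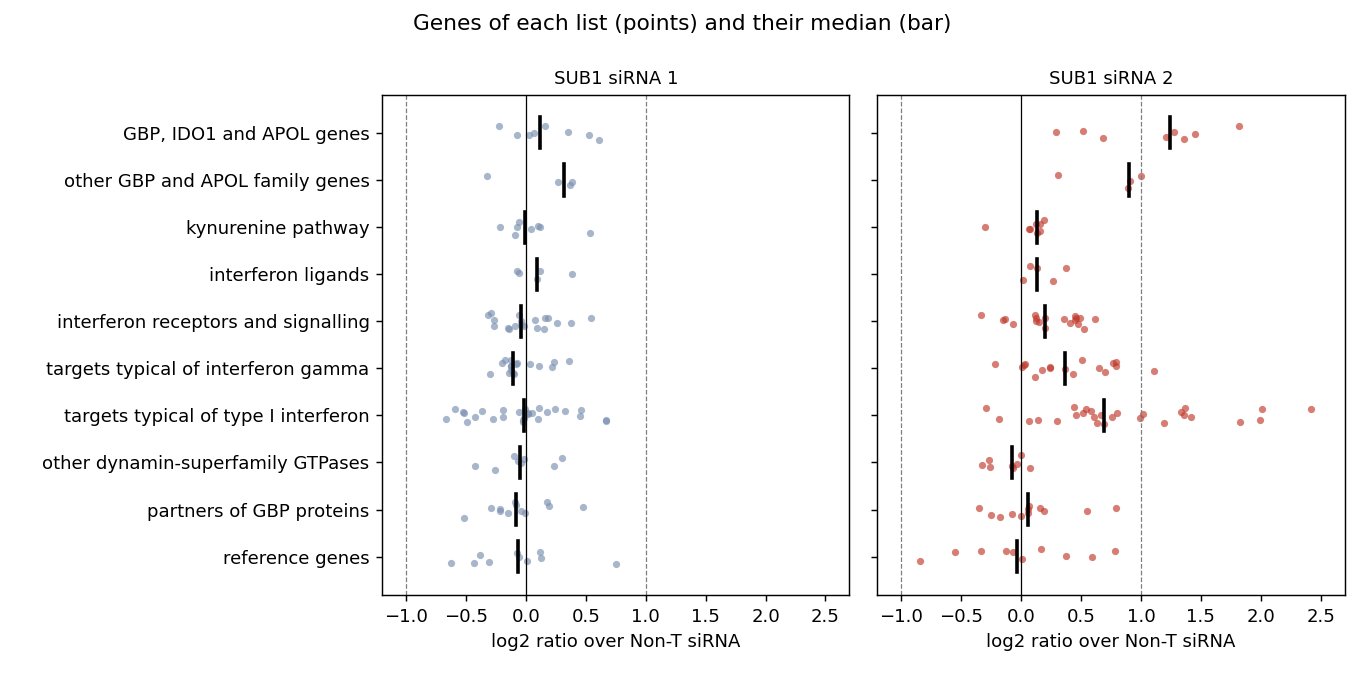
Log2 ratio over Non-T siRNA (horizontal axes) for the measured genes of each list (points, shifted at random along the vertical for visibility) with the list's median (black bar), for SUB1 siRNA 1 on the left and SUB1 siRNA 2 on the right; the dashed lines mark 2-fold in either direction. The median of the 8 GBP, IDO1 and APOL genes is 0.11 on the left and 1.24 on the right, where the type I interferon targets are at 0.69 and the kynurenine genes at 0.13.

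By the pair of ratios alone, the genes nearest to IDO1, measured as the straight-line distance over the 2 arrays, were IFIT2 (distance 0.18), an unnamed transcript, ENST00000378953 (0.33), BATF2 (0.40), JUNB (0.43) and NT5C3A (0.44). Nearest to GBP1 were MYPN (0.04), JUNB (0.05), the same unnamed transcript (0.12), IFIH1 (0.12) and BATF2 (0.18). BATF2, a transcription factor, was at -0.02 with siRNA 1 and 1.43 with siRNA 2, and IFIH1, the sensor of long double-stranded RNA, at 0.24 and 1.37. Distances over 2 points rank many genes closely and describe only these arrays.

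None of the genes measured next to the members on the chromosomes was past 2-fold outside both families. That is near the share of all 19217 genes: 40 were higher and 117 lower with siRNA 1, and 118 and 205 with siRNA 2. In the RefSeq gene order, 16 genes outside both families flank the GBP, IDO1 and APOL loci. Their median was 0.01 with siRNA 1 and 0.05 with siRNA 2, where they ranged from -0.98 (MCM5, a subunit of the replicative helicase) to 0.67 (HMOX1, which degrades haem). GTF2B and RBMXL1, on the GBP3 side of the GBP genes, were at 0.66 and 0.65 with siRNA 2, and KYAT3, a kynurenine enzyme encoded beside them, at 0.12. ADAM9 and ZMAT4, on either side of IDO1, were at 0.20 and 0.34 with siRNA 2. MYH9, beside APOL1, was at -0.61 with siRNA 1 and -0.41 with siRNA 2, and RBFOX2, between APOL6 and the other APOL genes, at 0.02 and -0.05.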

How the data were processed

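The deposited intensity values came from 2 Agilent dual-colour arrays (design 014850, coordinates on hg18) scanned by the authors with Feature Extraction 9.5.1.1; each had 45015 spots, of which 43376 were gene spots for 41000 probes. The authors' deposited table of log2 ratios served only as an alternative: it tracked Cy5 over Cy3 (r = 0.958 and 0.970 across probes), so scale and direction were settled, with column medians of -0.0054 and -0.0068. The authors extracted and normalized the arrays with the agilp package, with loess on each array.

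Mean and background signals were corrected with normexp (offset 50) and normalized within arrays by loess (span 0.3) in limma 3.58.1 (R 4.3.3). For the levels of single channels, mean intensities of both arrays were then set to the same distribution (limma's Aquantile). That step leaves the log2 ratios unchanged. Outlier spots were left out (112 and 100), and 0 spots were saturated. The filter on dim probes asked, on both arrays, for a channel in which a share of 0.5 or more of the spots was flagged well above background, and left 25673 probes. Genes were named through RefSeq accession, symbol or alias (12979 of 19217; the others kept the array's name) and represented by the brightest kept probe. Each array gave 54.3% of gene spots above background in Cy3, and 67.2% and 64.5% in Cy5; the number of arrays limits the precision. The limma test used 2 arrays against 0, with Benjamini-Hochberg adjustment over all genes, and was tested on simulated data. Named genes were all 8 members with every probe, SUB1, the genes of each list that were at least 2-fold on either array (at most 4, or the top 2 where fewer than 2 were), the 5 genes nearest to IDO1 and to GBP1, and 3 measured genes on each side of the loci. The KLK3 and STAT3 probes were looked up after the values were seen, and some marker genes are not reported here. The members and lists were chosen with earlier results of these data known. A fold bound used the lowest well-above-background signal of each array. Alternatives covered background correction, normalization, outliers, the dim-probe filter, the choice of probe, the authors' values and limma's prior.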

Additional observations from a re-analysis of the deposited data

Results flagged for a closer look

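IDO1 had opposite signs with the siRNAs, -0.076 with SUB1 siRNA 1 and 1.82 with SUB1 siRNA 2. APOL6 did so as well, -0.23 with siRNA 1 and 0.52 with siRNA 2. Each value is 1 spot of 1 array, and these differences were not tested. The sign with siRNA 1 does not hold under every setting: IDO1 was at 0.15 with median centring and 0.11 in the authors' log2 ratios, and APOL6 was at 0.03 as the mean of its probes.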

How the results depend on the processing

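Of 10 alternatives, none brought a member past an adjusted p of 0.05 in limma (lowest 0.0768, with median centring), with 2 to 6 of the 8 genes at an unadjusted p under 0.05, and none made a member 2-fold higher with siRNA 1. The count with siRNA 2 stayed within 1.5 times of 5, and was 4 with the mean of a gene's probes, since APOL3 was then at 0.65. The members' median with siRNA 1 was 0.34 with median centring in place of loess and 0.21 in the authors' log2 ratios. With siRNA 2 it was 1.501 with median centring, 1.32 with the scanner software's processed signals and 0.85 with the mean of all probes. Median centring put the median of all genes at 0.13 and 0.12 (0.02 and 0.02 with loess). The share of higher genes among those past 2-fold was 25.5% and 36.5% for siRNA 1 and siRNA 2, against 71.0% and 72.5% with median centring, 72.4% and 67.9% with processed signals and 36.7% and 47.4% in the authors' values. Apart from the sign changes of IDO1 and APOL6 with siRNA 1, GBP2 with siRNA 1 was at -0.01 with processed signals and -0.08 as the mean of its probes. The cause was not tested. Over these alternatives with siRNA 2, IDO1 ran from 1.78 to 2.09, GBP1 from 1.41 to 1.71 and APOL3 from 0.65 to 1.94. Leaving out either array leaves 1, with no test. No paired analysis was possible because each siRNA has 1 array. The dim probes of APOL3 and APOL6 (signals between 85.5 and 457) limit what can be said of those genes.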
